A study of Mus musculus with 12 samples.

Results

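The genes described here encode the machinery that brings new secretory and membrane proteins into the endoplasmic reticulum (ER), folds them there and removes those that fail to fold. They were chosen by name: a row of the deposited expression table belonged to the group when its gene symbol was 1 of 38 listed symbols. All 38 symbols were found among the 24538 gene rows, and all 38 were among the 12436 genes whose mean deposited value was at least 3 and which were tested. By role they were 9 ER chaperones and their helpers, 3 genes of glycoprotein folding by lectins, 4 protein disulfide isomerases, 3 sensors or factors of the unfolded protein response, 9 genes of ER-associated degradation, and 10 genes of the translocon and the signal peptidase.

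Messenger RNA was sequenced from CD4+ T cells of C57BL/6 mice labelled female, taken from spleens and peripheral lymph nodes. The cells had been activated and then cultured with interleukin 6 (IL-6) together with an inhibitor of the TGF-β receptor, and they were collected 3 h or 12 h after this treatment. They were either wild type (WT) or labelled CD4cre;Smad4fl/fl (KO), a genotype in which the Cre recombinase is driven by Cd4 regulatory sequence and therefore acts in T cells, and in which both Smad4 copies carry sites for deletion by Cre. There were 3 libraries in each of the 4 groups (WT and KO at 3 h, WT and KO at 12 h), so all 12 libraries share IL-6, the inhibitor and activation, and none is an untreated control. The labels give no age, and they do not say whether the 3 libraries of a group came from separate animals, so p-values measure only the spread between these libraries. That spread may be technical in part, though not wholly, since library 2 of each group differs from the other 2 in sex-linked genes, as given below.

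The ER lumen holds chaperones that bind unfolded chains, lectins that hold glycoproteins by their sugars, and disulfide isomerases that form and rearrange disulfide bonds. When unfolded chains build up, the membrane sensors IRE1 (encoded by Ern1), ATF6 and PERK set off the unfolded protein response. IRE1 splices the Xbp1 messenger RNA so that it encodes an active transcription factor, ATF6 is cut to release another, and PERK slows translation. Many of the genes below are known targets of these factors, and T cells that are activated to divide and to secrete cytokines are known to enlarge this machinery. The values of Xbp1 here are summed over the gene and do not separate its spliced from its unspliced form.

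Known targets of ATF6 and XBP1 often carry an ER stress response element in the promoter, a CCAAT box and a CCACG box 9 bases apart. The promoter sequences searched were those of RefSeq (GRCm38.p6), from 250 bases before to 50 bases after the start of each gene, on both strands. They covered 31 of the 38 genes; Atf6, Hyou1, Manf, Derl1, Sec61a1, Ssr2 and Spcs3 had no entry in the table. The full element, CCAAT followed by any 9 bases and then CCACG, which by construction contains both boxes, was found in 9 of the 31 genes (29.0%) and in 37 of all 27025 genes with a promoter in the table (0.137%). The second form of the element, ATTGG followed by any 1 base and then CCACG, was found in 2 of the 31 (6.45%) and in 12 of all genes (0.0444%). The letters TGACGTGG, the core of a further element bound by XBP1 and ATF6, were in 0 of the 31 and in 193 of all genes (0.714%). A match describes letters only and is not evidence of binding.

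The stretches below show the element in 10 of these promoters, with its letters in capitals and 5 or 9 flanking bases on each side, read 5′ to 3′ on the strand of the gene. They are shown because genes with the same element moved in opposite directions over time, as described further on. The promoters of Canx, Herpud1 and Hsp90b1 were added, after the values had been seen, so that every match of both forms is shown. In Calr, Creld2 and Derl3 the element lay in reverse orientation and reads CGTGG first. Positions count from the RefSeq start of the gene, and coordinates are GRCm38.
Hspa5, chr2:34772020-34772048, plus strand, element from -65 to -47: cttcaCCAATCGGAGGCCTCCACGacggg
Calr, chr8:84847070-84847098, minus strand, element from -162 to -144: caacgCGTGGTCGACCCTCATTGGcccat
Canx, chr11:50325795-50325823, minus strand, element from -145 to -127: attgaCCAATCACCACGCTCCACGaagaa
Pdia6, chr12:17266486-17266514, plus strand, element from -98 to -80: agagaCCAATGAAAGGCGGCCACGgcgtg
Dnajc3, chr14:118937822-118937850, plus strand, element from -105 to -87: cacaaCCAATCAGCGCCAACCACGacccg
Syvn1, chr19:6046527-6046555, plus strand, element from -44 to -26: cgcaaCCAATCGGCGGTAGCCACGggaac
Creld2, chr15:88819515-88819543, plus strand, element from -126 to -108: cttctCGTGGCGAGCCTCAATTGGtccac
Derl3, chr10:75893237-75893265, plus strand, element from -156 to -138: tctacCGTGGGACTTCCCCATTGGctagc
Herpud1, second form, chr8:94386368-94386396, plus strand, element from -52 to -42: cgggcgctgATTGGGCCACGttggacact
Dnajb11, second form, chr16:22857843-22857871, plus strand, element from 8 to 18: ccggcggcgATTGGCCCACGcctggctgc
Hsp90b1 carried the full element in 2 places, from -212 to -194 and, in reverse orientation, from -107 to -89. The 180 bases that hold both, chr10:86705515-86705694 on the minus strand, are shown with the elements in capitals.
Hsp90b1, from -250 to -71: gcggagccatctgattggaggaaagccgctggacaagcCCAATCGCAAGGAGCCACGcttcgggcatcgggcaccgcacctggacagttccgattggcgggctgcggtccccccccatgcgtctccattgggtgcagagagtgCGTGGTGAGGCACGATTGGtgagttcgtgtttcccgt

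Values are the log2 values that the authors deposited after normalising for depth, and the depth of the libraries is unknown. Smad4 was at 11.5 to 11.7 in all 12 libraries, and its KO minus WT difference was 0.00 ± 0.06 (standard error, SE) at 3 h and 0.02 ± 0.06 at 12 h, so its summed level does not check the KO label. A deleted exon can leave such a level in place, and values per exon were not analysed here. The 4 libraries with replicate number 2, 1 in each group, stood apart in sex-linked genes although all libraries are labelled female. Xist was at most 5.70 and Ddx3y at least 12.3 in these 4, while the other 8 had Xist at 15.1 or more and Ddx3y at 2.77 or less, and counts are also given without them. Markers that define T cells (7 of 8 listed were in the table, none at 0) had a summed log2 level of 17.01 to 17.24 across all libraries. Single T cell markers moved both ways with time, by -0.64 to 1.27 in WT and -0.53 to 1.25 in KO. Of the 7, 4 were called higher and 2 lower at 12 h in WT, and 3 higher and 1 lower in KO. The 10 markers of B cells summed to between 8.80 and 9.35 at 3 h and between 8.06 and 8.48 at 12 h, with 6 called lower at 12 h in each genotype. The 9 markers of myeloid and dendritic cells summed to between 8.81 and 9.20 and then between 7.43 and 7.80, with 6 of the 7 tested called lower in each genotype. The 8 markers of CD8 T and NK cells summed to between 9.33 and 9.82 in all libraries, but moved both ways with time, with 1 of the 6 tested called higher and 2 lower in WT and 1 higher and 1 lower in KO (Gzma, a granzyme, fell by 2.33 and fell by 2.24). No marker of these lists was listed at 0. These counts of calls stand beside 34.3% of all genes tested called higher and 33.6% lower at 12 h in each genotype. In bulk samples, fewer cells of a type and less RNA per cell cannot be told apart.

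Plasma cells are known for very high levels of this machinery, and their markers were therefore read beside it. Of 9 listed markers 7 were in the table and 5 were tested, and 0 were listed at 0. The summed log2 level was 17.2 to 17.4 at 3 h and 16.5 to 16.8 at 12 h. Of the 5, 3 were called lower at 12 h in each genotype, beside 33.6% of all genes. The sum includes Xbp1 itself and Irf4, which activated T cells also express. Xbp1, a gene of the group described here, was also among the 5 tested, so these counts are not independent of the group. By limma, Xbp1 was among the 3 called lower in WT (adjusted p = 0.0206). It was not called in KO (adjusted p = 0.11), so the 3 called there were a different set. Of the defining genes, Jchain, Mzb1 and Sdc1 were low, with group means from 2.42 to 3.35, from 1.98 to 2.28 and from 5.02 to 5.49. Tnfrsf17 was at -2.27 in every group. The lowest change of a tested marker from 3 h to 12 h was -2.99 in WT and -3.34 in KO, beyond the range of any of these genes. The part of other cell types in the changes below was not tested.

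Per length of exon (log2 level per kilobase of exon, GENCODE M21), the most abundant transcripts of the group were those of Hspa5 at 14.47, which encodes the chaperone BiP, and Calr at 14.22, which encodes calreticulin. Hsp90b1, the ER form of the HSP90 chaperone, followed at 13.33, beside P4hb, a disulfide isomerase, at 13.31. The lowest on the same scale were Derl3 at 3.20 and Ern1 at 6.47, and next came Derl2 at 8.45 and Edem2 at 8.51, all 4 outside the chaperones. The genes lie on 17 chromosomes, with 6 on chromosome 11. Libraries of a group lay close together: over 38 genes and 4 groups, the standard deviation (SD) between the 3 libraries ran from 0.0056 (Xbp1, WT at 12 h) to 0.307 (Ern1, KO at 3 h), with a median of 0.0672.

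**Figure D1:**
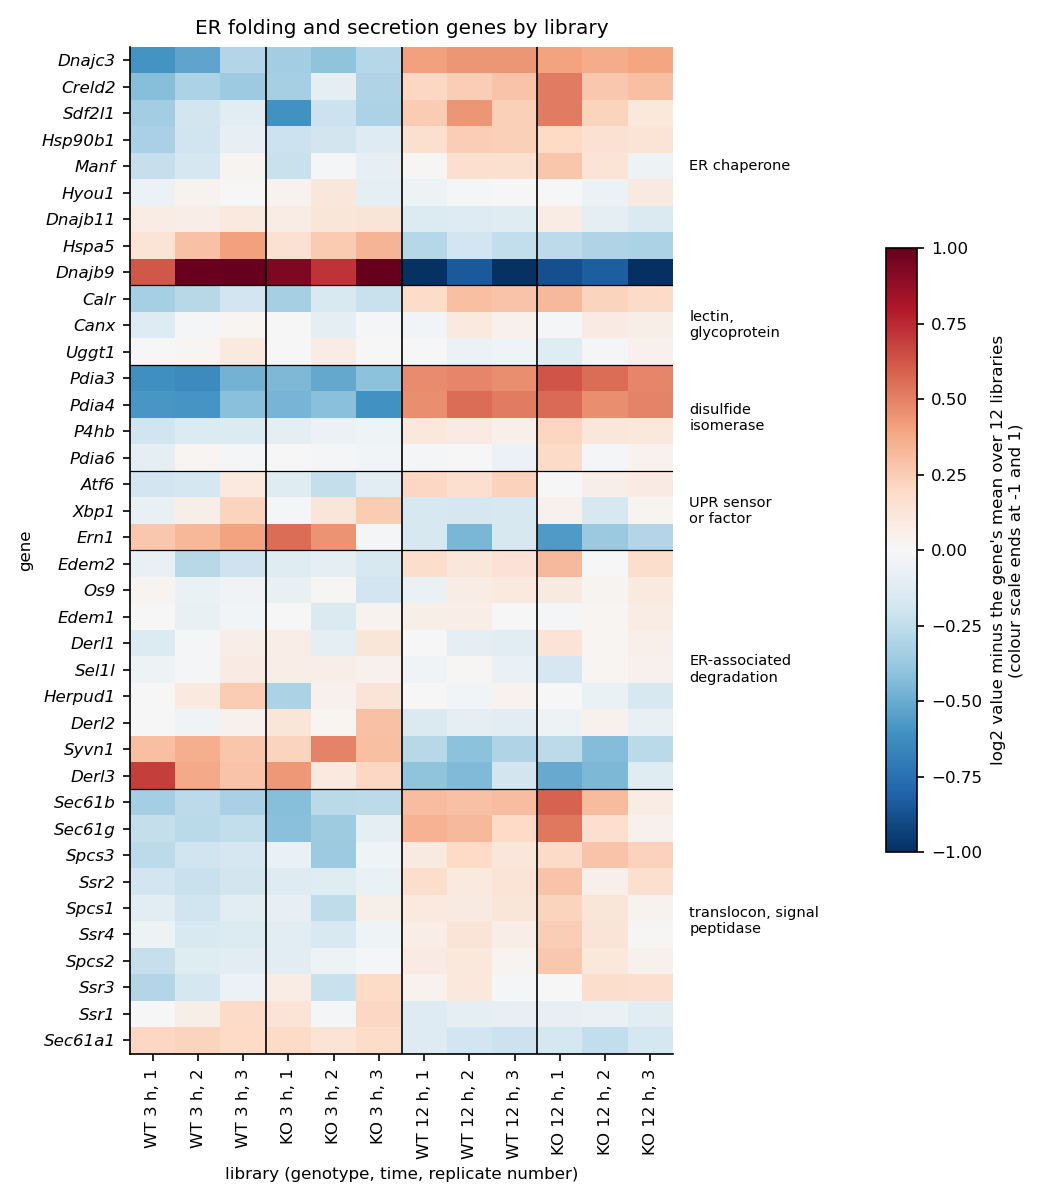
Heat map of the 38 ER folding and secretion genes (rows, grouped by role) in the 12 libraries (columns, by genotype, time and replicate number). Colour is the deposited log2 value minus the gene's mean over the 12 libraries, with the scale ending at -1 and 1; Dnajb9 passes both ends. The columns differ mainly between 3 h and 12 h, and in most roles rows that turn red at 12 h stand beside rows that turn blue.

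The change from 3 h to 12 h asks how this machinery moved as the cells went on responding to activation and IL-6. Within the group it was split. The disulfide isomerase genes Pdia3 and Pdia4, the chaperone helper Dnajc3 and the small translocon subunits Sec61b and Sec61g rose, while the chaperone genes Hspa5 and Dnajb9, the sensor gene Ern1, the ligase gene Syvn1 and the pore subunit Sec61a1 fell, in WT and KO-labelled cells alike. A gene was called at a Benjamini-Hochberg adjusted p under 0.05 in limma, adjusted over all 12436 genes tested. Values per library are given in the order of replicate numbers 1, 2 and 3, those of 3 h before those of 12 h.

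In WT, 28 of 38 genes were called (73.7%), 19 higher and 9 lower at 12 h, where 67.9% of all genes tested were called, 34.3% higher and 33.6% lower. In the KO-labelled libraries it was again 28 of 38, 19 higher and 9 lower, against 68.0% of all genes, 34.3% higher and 33.6% lower. The share called was thus near the background, and the share called higher, 50%, lay above it, a description that was not tested. That share depended on the scaling: after quantile normalization 23 were higher and 6 lower in each genotype, and after centring each library on its median 13 were higher and 11 lower in WT and 10 higher and 12 lower in KO. Centring moved the median change of all genes by -0.11 in WT and -0.13 in KO. The median change of the 38 genes was 0.14 in WT and 0.13 in KO on the log2 scale, beside 0.00 for all genes in both. Taken without sign, the median change was 0.27 in WT and 0.23 in KO, smaller than the 0.46 and 0.47 of all genes. Without the 4 libraries numbered 2, 21 were called in each genotype. The calls then lost were those of Xbp1, Manf, Ssr1, Ssr3, Ssr4, Spcs1 and Spcs2 in WT (adjusted p from 0.051 to 0.194) and of Atf6, Dnajb11, Manf, Derl3, Ssr4, Spcs1 and Spcs2 in KO (from 0.0638 to 0.198).

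Both genotypes called the same 18 genes higher and the same 8 lower, where 31.1% and 30.1% of all genes were called so in both, and 0 were called in opposite directions. Xbp1 and Ssr3 were called in WT only and Derl2 and Os9 in KO only, with no difference between genotypes called for any of them. The values of the 3 h and 12 h libraries did not overlap for 29 of 38 genes in WT and for 25 in KO, beside 72.7% and 69.5% of all genes. Called in the same direction in both genotypes under each of the 21 alternative settings tried were 10 higher genes (Hsp90b1, Calr, Pdia3, Pdia4, Dnajc3, Creld2, Sdf2l1, Sec61b, Sec61g and Spcs3) and 5 lower genes (Hspa5, Ern1, Dnajb9, Syvn1 and Sec61a1).

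**Figure D2:**
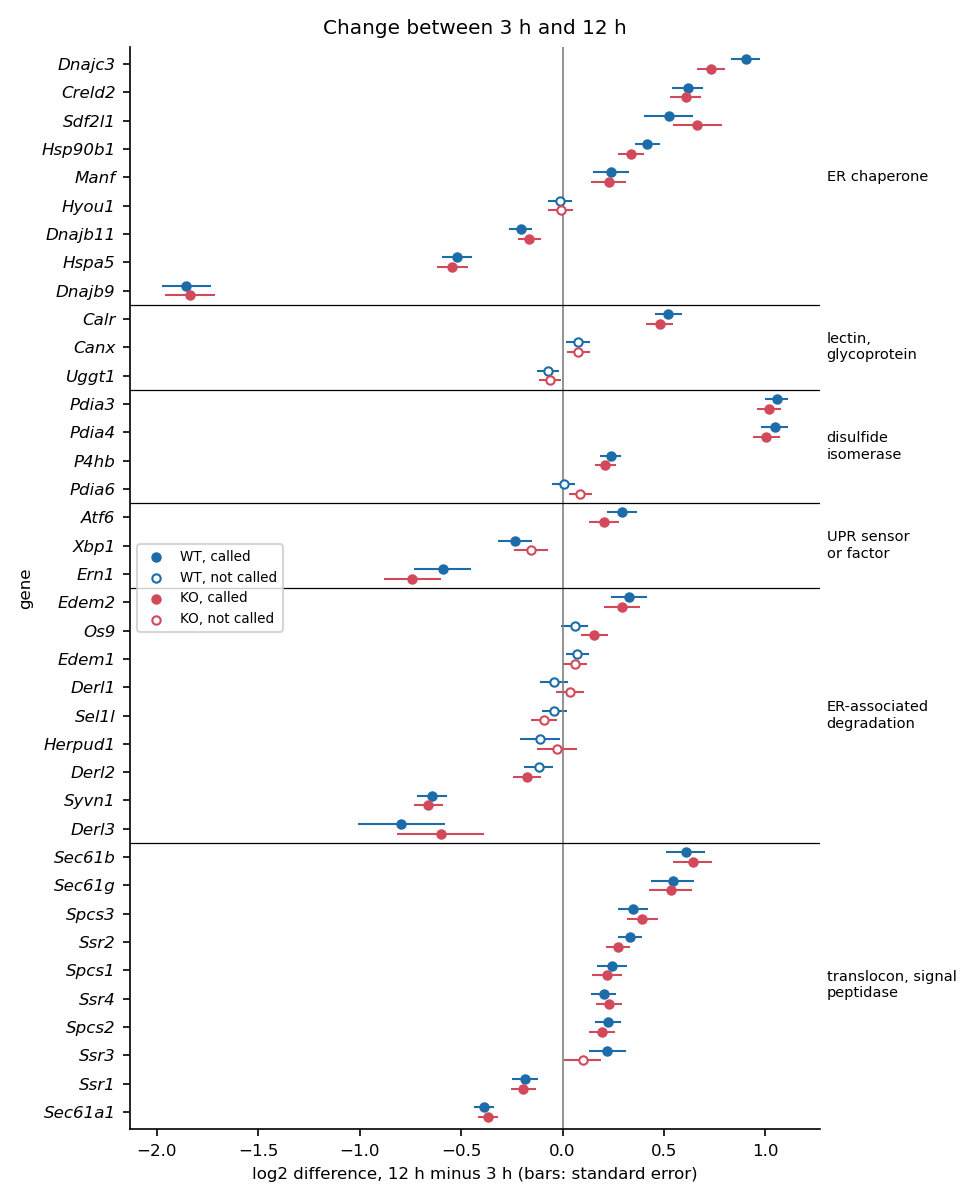
Log2 difference between 12 h and 3 h for each of the 38 genes (rows, grouped by role), in WT (blue) and KO-labelled libraries (red), with 3 libraries per group. Points are differences of group means, bars are standard errors from limma, and filled points were called. The blue and red points of a gene lie near each other, from -1.85 for Dnajb9 to 1.05 for Pdia3 and Pdia4 in WT.

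Of the 9 chaperones and helpers, 5 were called higher and 3 lower at 12 h in each genotype. These counts stand beside 34.3% of all genes higher and 33.6% lower. Dnajb9 encodes ERdj4, a co-chaperone of BiP that is a known target of spliced Xbp1, and it lies on chromosome 12 (44205559 to 44210326, minus strand). The WT libraries held Dnajb9 at 11.23, 11.59 and 11.74 at 3 h, then at 9.62, 9.77 and 9.62 at 12 h. Those labelled KO held it at 11.54, 11.33 and 11.73, then at 9.73, 9.78 and 9.58. All 6 values at 3 h thus lay more than 1 log2 unit above all 6 at 12 h. The gene fell 3.61-fold in WT (log2 difference -1.85 ± 0.12, adjusted p = 2.29e-09) and 3.57-fold in KO (-1.83 ± 0.12, adjusted p = 2.74e-09), and 3.05% of all genes had a lower mean change. A processed pseudogene, Gm6568, matches it at 93.1% over 697 bases, so a share of its reads could be misplaced.

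Hspa5, on chromosome 2 (34771970 to 34777547, plus strand), encodes BiP, the main chaperone of the ER lumen and the protein that holds the stress sensors inactive. Its WT values went from 16.69, 16.84 and 16.97 at 3 h to 16.27, 16.36 and 16.31 at 12 h, and its KO values from 16.71, 16.82 and 16.89 to 16.29, 16.25 and 16.24. The times did not overlap in either genotype, and the 3 h libraries were the more spread. Hspa5 fell 1.44-fold in WT (-0.52 ± 0.08, adjusted p = 1.47e-05) and 1.46-fold in KO (-0.54 ± 0.08, adjusted p = 9.51e-06).

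Dnajc3, which encodes P58IPK, a co-chaperone of BiP, moved the other way, from 11.23, 11.31 and 11.54 to 12.24, 12.28 and 12.27 in WT and from 11.49, 11.43 and 11.55 to 12.23, 12.21 and 12.23 in KO. All 12 h libraries lay above all 3 h libraries. The rise was 1.87-fold in WT (0.90 ± 0.07, adjusted p = 1.77e-08) and 1.66-fold in KO (0.73 ± 0.07, adjusted p = 1.96e-07). Hsp90b1, which encodes the chaperone GRP94, went from 15.01, 15.14 and 15.25 to 15.50, 15.59 and 15.58 in WT. It rose 1.34-fold in WT and 1.26-fold in KO, where it went from 15.13, 15.16 and 15.21 to 15.54, 15.49 and 15.48 (adjusted p = 2.35e-05 and 0.000199). Of its exon bases 15.7% also belong to other genes, and the kit does not mark strand.

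Creld2, an ER protein induced by stress, rose 1.53-fold in WT, from 11.14, 11.25 and 11.21 to 11.78, 11.82 and 11.86 (adjusted p = 3.73e-06). In KO it rose 1.52-fold, from 11.24, 11.48 and 11.27 to 12.09, 11.84 and 11.87 (adjusted p = 4.52e-06). Sdf2l1, which works with the co-chaperone ERdj3, rose 1.44-fold in WT, from 9.87, 10.04 and 10.12 to 10.48, 10.66 and 10.46 (adjusted p = 0.0012). In KO it rose 1.58-fold, from 9.62, 10.005 and 9.91 to 10.74, 10.45 and 10.33 (adjusted p = 0.000148). Neither gene's times overlapped.

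The remaining 3 chaperone genes moved little. Dnajb11, which encodes ERdj3, fell by 0.21 ± 0.06 on the log2 scale in WT (adjusted p = 0.00465) and fell by 0.16 ± 0.06 in KO (adjusted p = 0.0183). It went from 13.40, 13.39 and 13.43 to 13.19, 13.20 and 13.21 in WT, and from 13.40, 13.45 and 13.46 to 13.40, 13.23 and 13.18 in KO. KO library 1 at 12 h lay with the 3 h libraries, and the others at 12 h below them. Neither call was made after quantile normalization, where the KO difference was 0.00, and the KO call was lost without KO 12 h library 2 (adjusted p = 0.068) or 3 (adjusted p = 0.0952), without the 4 libraries numbered 2 (0.18) and when only the compared groups were fitted (0.0626). Manf, a secreted ER protein that binds BiP, rose by 0.24 ± 0.09 in WT (adjusted p = 0.024) and 0.23 ± 0.09 in KO (adjusted p = 0.03), calls that median centring removed, as did a prior without trend (adjusted p = 0.0592 and 0.0695), no filter (0.0712 and 0.0842) and leaving out the 4 libraries numbered 2 (0.194 and 0.0755). Leaving out 1 library removed the WT call in 4 cases (3 h libraries 1 and 2, 12 h libraries 2 and 3; adjusted p from 0.0729 to 0.0995) and the KO call in 3 (3 h library 1, 12 h libraries 1 and 2; from 0.0732 to 0.153). Hyou1, the nucleotide exchange factor of BiP, was at 14.19 to 14.39 in all libraries and was not called (-0.01 ± 0.06 in both genotypes, adjusted p = 0.857 and 0.899). After quantile normalization Hyou1 changed sign and was called higher in both genotypes.

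**Figure D3:**
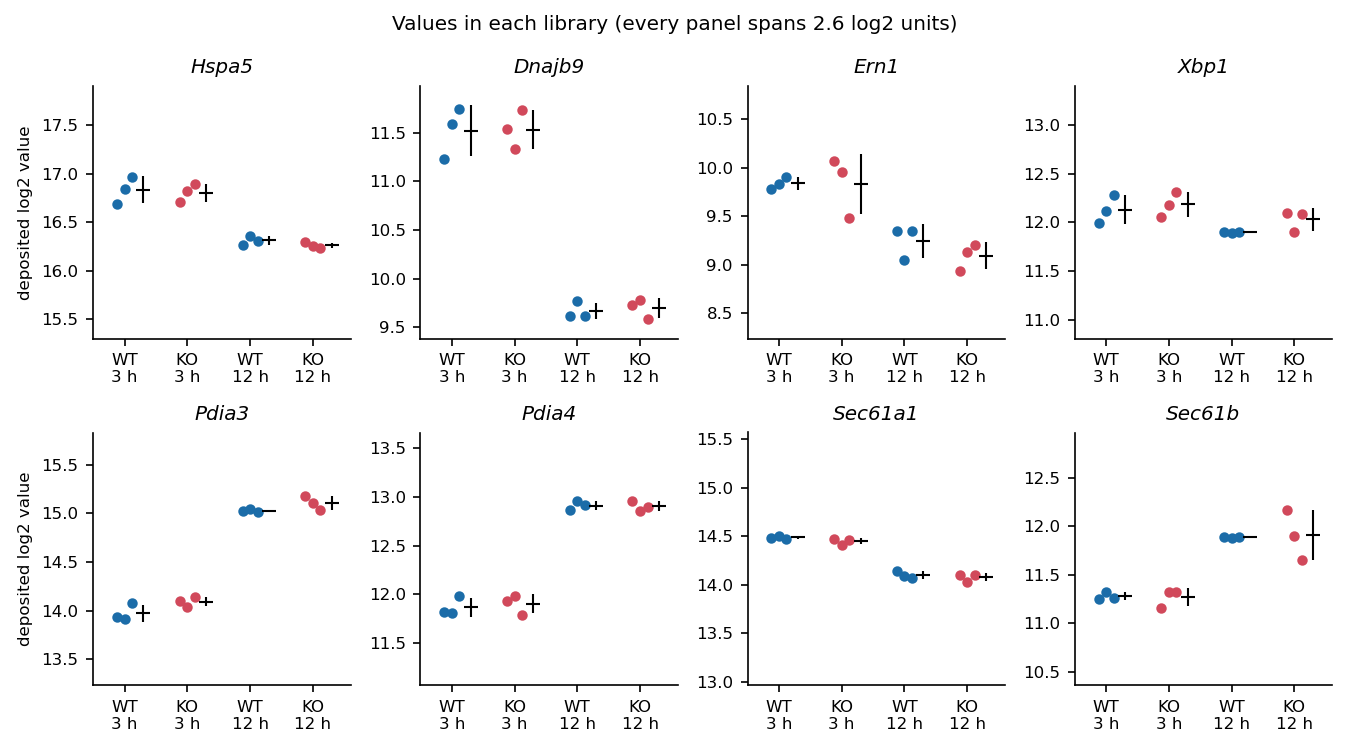
Deposited log2 values of 8 ER genes in each of the 12 libraries (points; WT blue, KO-labelled red; 3 libraries per group, in order of replicate number), with the group mean (horizontal tick) and SD (vertical bar). Every panel spans the same 2.6 log2 units but starts at its own level. Hspa5, Dnajb9, Ern1 and Sec61a1 are lower at 12 h with no overlap, Pdia3, Pdia4 and Sec61b are higher with no overlap, and the times overlap for Xbp1 in KO.

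Of the 4 disulfide isomerases, 3 were called higher in each genotype and 0 lower, beside 34.3% and 33.6% of all genes. Pdia3, on chromosome 2 (121413775 to 121438687, plus strand), encodes ERp57, the isomerase that works with calreticulin and calnexin and that also sits in the peptide-loading complex of MHC class I. WT libraries went from 13.93, 13.91 and 14.07 at 3 h to 15.02, 15.04 and 15.02 at 12 h, and KO libraries from 14.10, 14.04 and 14.14 to 15.18, 15.11 and 15.04. The times did not overlap, and the gap between them was wider than the spread of any group. Pdia3 rose 2.08-fold in WT (1.05 ± 0.06, adjusted p = 2.95e-10) and 2.02-fold in KO (1.02 ± 0.06, adjusted p = 4.61e-10).

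Pdia4, on chromosome 6 (47796141 to 47813430, minus strand), encodes the isomerase ERp72. In WT it went from 11.81, 11.80 and 11.98 at 3 h to 12.86, 12.96 and 12.92 at 12 h, and in KO from 11.93, 11.98 and 11.79 to 12.96, 12.86 and 12.89. Its size of change was like that of Pdia3, with a rise of 2.06-fold in WT (adjusted p = 1.25e-09) and 2.01-fold in KO (adjusted p = 2.13e-09). P4hb, which encodes the classical disulfide isomerase PDI, rose by 0.24 ± 0.05 in WT (adjusted p = 0.000717) and 0.21 ± 0.05 in KO (adjusted p = 0.00184), and neither call was made after median centring. Pdia6, the fourth isomerase, went from 13.97, 14.09 and 14.05 to 14.05, 14.06 and 14.01 in WT and from 14.06, 14.04 and 14.04 to 14.25, 14.05 and 14.10 in KO. Its times overlapped in both genotypes, and KO library 1 at 12 h was the highest. Pdia6 was not called in WT (0.01 ± 0.06, adjusted p = 0.934) or KO (0.09 ± 0.06, adjusted p = 0.186). It was called higher in both after quantile normalization.

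Of the 3 genes for folding glycoproteins, Calr alone was called, in each genotype, beside 67.9% of all genes in WT and 68.0% in KO. Calr, on chromosome 8 (84841850 to 84846934, minus strand), encodes the soluble lectin calreticulin, and it went from 15.42, 15.47 and 15.55 to 15.93, 16.05 and 16.03 in WT. The KO values went from 15.41, 15.60 and 15.53 to 16.07, 15.97 and 15.94. With no overlap between times, Calr rose 1.44-fold in WT (0.52 ± 0.07, adjusted p = 3.63e-06) and 1.39-fold in KO (0.48 ± 0.07, adjusted p = 9.36e-06). Canx, which encodes the membrane-bound lectin calnexin, differed by 0.08 ± 0.06 in both genotypes (adjusted p = 0.254 and 0.25), with overlapping times in WT and KO. Canx was called higher in both after quantile normalization. Uggt1, which encodes the enzyme that puts glucose back on misfolded glycoproteins, differed by -0.07 ± 0.05 in WT and -0.06 ± 0.05 in KO (adjusted p = 0.257 and 0.342), and was called lower in both after median centring. A processed copy, Calr-ps, matches Calr at 92.5% over 495 bases.

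Of the 3 sensors and factors of the stress response, Ern1 and Xbp1 were lower at 12 h in WT and Atf6 higher. In WT 67.9% of all genes were called. Ern1, on chromosome 11 (106394650 to 106487852, minus strand), encodes IRE1 and went from 9.78, 9.84 and 9.90 at 3 h to 9.35, 9.05 and 9.35 at 12 h in WT. The KO libraries had 10.07, 9.95 and 9.49, then 8.94, 9.14 and 9.21. The KO libraries at 3 h were widely spread, yet the lowest was still above every 12 h library. Ern1 fell 1.51-fold in WT (-0.59 ± 0.14, adjusted p = 0.00143) and 1.67-fold in KO (-0.74 ± 0.14, adjusted p = 0.000209).

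Xbp1, on chromosome 11 (5520659 to 5525893, plus strand), encodes the factor that IRE1 activates by splicing. Its WT values went from 11.99, 12.12 and 12.28 to 11.90, 11.89 and 11.90, and its KO values from 12.05, 12.18 and 12.32 to 12.10, 11.90 and 12.09. The WT libraries at 12 h were almost identical, those at 3 h were spread, and the KO times overlapped. Xbp1 fell by 0.23 ± 0.08 in WT (adjusted p = 0.0206), a call lost without WT 3 h library 3 (adjusted p = 0.118) or WT 12 h library 2 (adjusted p = 0.0507), without the 4 libraries numbered 2 (0.0873), with no filter (0.0538) and after quantile normalization (0.0577). In KO the difference was -0.15 ± 0.08 (adjusted p = 0.11), and it was called lower after median centring.

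Atf6, on chromosome 1 (170704674 to 170867771, minus strand), encodes the sensor that is cut in the Golgi to release a transcription factor. It went from 11.65, 11.66 and 11.94 to 12.04, 12.01 and 12.07 in WT, and from 11.71, 11.60 and 11.72 to 11.83, 11.90 and 11.92 in KO. The times did not overlap in either genotype. Atf6 rose 1.22-fold in WT (0.29 ± 0.07, adjusted p = 0.00246) and 1.15-fold in KO (0.20 ± 0.07, adjusted p = 0.0232). The KO call was lost without KO 3 h library 2 (adjusted p = 0.0903), KO 12 h library 2 (adjusted p = 0.0591) or KO 12 h library 3 (adjusted p = 0.0684), without the 4 libraries numbered 2 (0.198), and after median centring.

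The 9 genes of ER-associated degradation, which moves misfolded proteins out of the ER to the proteasome, had 1 gene called higher and 2 lower in WT (33.3% called), and 2 higher and 3 lower in KO (55.6%), beside 67.9% and 68.0% of all genes. No test compared the roles. Syvn1, on chromosome 19 (6046576 to 6053712, plus strand), encodes HRD1, the ubiquitin ligase at the centre of this pathway. WT values went from 12.48, 12.53 and 12.45 to 11.89, 11.76 and 11.87, and KO values from 12.40, 12.67 and 12.47 to 11.91, 11.74 and 11.91. The 12 h libraries all lay below the 3 h libraries. Syvn1 fell 1.56-fold in WT (-0.64 ± 0.07, adjusted p = 1.07e-06) and 1.58-fold in KO (-0.66 ± 0.07, adjusted p = 8.23e-07). Sel1l, its adaptor in the same complex, was not called (-0.04 ± 0.06 and -0.09 ± 0.06, adjusted p = 0.593 and 0.207), and after median centring it was called lower in KO.

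Among the derlins, membrane proteins of the exit channel, Derl3 was by far the least abundant. It went from 4.88, 4.57 and 4.48 to 3.79, 3.75 and 4.01 in WT, and from 4.63, 4.29 and 4.40 to 3.69, 3.75 and 4.07 in KO. The times did not overlap, at levels where the deposited transform pulls differences together. Derl3 fell 1.74-fold in WT (adjusted p = 0.00378) and 1.52-fold in KO (adjusted p = 0.0208), the latter call lost without KO 3 h library 1, KO 12 h library 1 or KO 12 h library 2 (adjusted p from 0.0625 to 0.0776), without the 4 libraries numbered 2 (0.0897), and after quantile normalization (0.0814). Derl2 went from 11.45, 11.43 and 11.50 to 11.31, 11.36 and 11.35 in WT, and from 11.58, 11.48 and 11.75 to 11.41, 11.50 and 11.38 in KO, where the times overlapped. Derl2 differed by -0.12 ± 0.07 in WT (adjusted p = 0.149) and fell by 0.17 ± 0.07 in KO (adjusted p = 0.0372), a call lost without library 1 or 3 of KO at 3 h or at 12 h (adjusted p from 0.0562 to 0.198), with a prior without trend (0.0525), when only the compared groups were fitted (0.0871) and with array weights (0.0587). After median centring Derl2 was called lower in WT too. Derl1 was not called, with -0.04 in WT, from 12.29, 12.41 and 12.49 to 12.43, 12.33 and 12.31, and 0.03 in KO, from 12.49, 12.34 and 12.55 to 12.57, 12.45 and 12.48. A processed copy, Gm35638, matches Derl1 at 95.2% over 652 bases.

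Edem2, which trims mannose from misfolded glycoproteins, rose by 0.33 ± 0.09 in WT (adjusted p = 0.00409) and 0.29 ± 0.09 in KO (adjusted p = 0.00839), and neither scaling alternative kept the KO call. Edem1, of the same family, was not called (0.07 and 0.06, adjusted p = 0.282 and 0.356), and both genotypes called it higher after quantile normalization. Os9, a lectin that hands misfolded glycoproteins to the ligase complex, differed by 0.06 in WT (adjusted p = 0.432) and rose by 0.16 in KO (adjusted p = 0.0413). Os9 went from 12.29, 12.19 and 12.23 to 12.19, 12.33 and 12.36 in WT, and from 12.19, 12.27 and 12.07 to 12.35, 12.29 and 12.36 in KO, so that only the WT times overlapped. That Os9 call held in 10 of the 21 alternatives. It was lost without library 1 or 3 of KO at 3 h or 12 h or WT 12 h library 2 (adjusted p from 0.0517 to 0.179), with a replicate block (0.0564) and after median centring (0.734). It was also lost with a prior without trend (0.069), no filter (0.054), fitting only the compared groups (0.0754) and array weights (0.0614). Herpud1, a stress-induced partner of the ligase, was not called (-0.11 ± 0.10 and -0.03 ± 0.10, adjusted p = 0.329 and 0.816).

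The 10 genes of the translocon and signal peptidase were called throughout in WT, 8 higher and 2 lower, and all but Ssr3 in KO, 7 higher and 2 lower. Of all genes, 67.9% were called in WT and 68.0% in KO, with 34.3% higher and 33.6% lower in each genotype. The 3 subunits of the SEC61 channel did not move together. Sec61a1, the pore subunit, on chromosome 6 (88503579 to 88518905, minus strand), went from 14.48, 14.50 and 14.48 to 14.15, 14.09 and 14.07 in WT, and from 14.47, 14.41 and 14.46 to 14.10, 14.03 and 14.10 in KO. The 12 h libraries all lay below the 3 h libraries by more than either group's spread. It fell 1.31-fold in WT (-0.39 ± 0.05, adjusted p = 3.31e-06) and 1.29-fold in KO (-0.37 ± 0.05, adjusted p = 6.05e-06).

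Sec61b, the β subunit, on chromosome 4 (47474658 to 47483242, plus strand), went from 11.25, 11.33 and 11.26 to 11.89, 11.87 and 11.89 in WT, and from 11.16, 11.32 and 11.32 to 12.17, 11.90 and 11.66 in KO. All 12 h libraries were the higher, with KO at 12 h the most spread. Sec61b rose 1.52-fold in WT (0.61 ± 0.10, adjusted p = 4.07e-05) and 1.56-fold in KO (0.64 ± 0.10, adjusted p = 2.27e-05). Sec61g, the γ subunit, on chromosome 11 (16500530 to 16508484, minus strand), went from 11.74, 11.72 and 11.74 to 12.33, 12.31 and 12.18 in WT. The KO libraries had it at 11.56, 11.63 and 11.90, then at 12.51, 12.15 and 12.02. Sec61g rose 1.46-fold in WT (adjusted p = 0.000286) and 1.45-fold in KO (adjusted p = 0.000331), again with no overlap of the times. Both small subunits have near-identical copies in the genome, and their values are uncertain to that extent: Gm10320 matches Sec61b at 98.7% over 467 bases (82.8% of its transcript), and Gm10177 matches Sec61g at 100% over 420 bases.

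The signal peptidase cuts signal peptides from entering chains. Its 3 listed subunits, which need not be the whole enzyme, were each called higher in both genotypes, as were 31.1% of all genes. Spcs3 rose by 0.35 ± 0.07 in WT (adjusted p = 0.000635) and 0.39 ± 0.07 in KO (adjusted p = 0.000204). Spcs1 rose by 0.24 ± 0.07 and 0.22 ± 0.07 (adjusted p = 0.00822 and 0.0149), and Spcs2 by 0.22 ± 0.06 and 0.19 ± 0.06 (adjusted p = 0.00511 and 0.0126). Median centring removed the calls of Spcs1 and Spcs2 in both genotypes, as did leaving out the 4 libraries numbered 2 (adjusted p = 0.051 in WT and 0.189 in KO for Spcs1, 0.0542 and 0.0638 for Spcs2). Their KO calls also went without KO 3 h library 2 or KO 12 h library 1 for Spcs1 (adjusted p = 0.0899 and 0.0687) and without KO 3 h library 1 or KO 12 h library 1 for Spcs2 (adjusted p = 0.0504 and 0.0698). Spcs1 shares 16.3% of its exon bases with other genes, and Spcs2 has a copy, Spcs2-ps, that matches at 96.9% over 645 bases.

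The 4 Ssr genes encode the translocon-associated protein complex, which helps some chains to enter. Ssr2 rose by 0.33 ± 0.06 in WT (adjusted p = 0.000122) and 0.27 ± 0.06 in KO (adjusted p = 0.000769), and Ssr4 by 0.20 ± 0.06 and 0.23 ± 0.06 (adjusted p = 0.00977 and 0.00438). Median centring removed the calls of Ssr4 in both genotypes and that of Ssr2 in KO, and those of Ssr4 were also lost without the 4 libraries numbered 2 (adjusted p = 0.139 in WT and 0.0698 in KO). Ssr1 fell by 0.18 ± 0.06 in WT (adjusted p = 0.0176) and fell by 0.19 ± 0.06 in KO (adjusted p = 0.0139), calls lost after quantile normalization. Its values went from 13.59, 13.65 and 13.78 to 13.46, 13.49 and 13.51 in WT and from 13.73, 13.57 and 13.80 to 13.51, 13.52 and 13.49 in KO, with no overlap. The WT call of Ssr1 was also lost without WT 3 h library 3 or WT 12 h library 1 (adjusted p = 0.1 and 0.0538) or the 4 libraries numbered 2 (0.0553), and the KO call without KO 3 h library 3 (adjusted p = 0.0686). Ssr3 rose by 0.22 ± 0.09 in WT (adjusted p = 0.0424), a call lost without any 1 of 5 of the 6 WT libraries (all but 3 h library 3; adjusted p from 0.0523 to 0.163), without the 4 libraries numbered 2 (0.11), with a prior without trend (0.0925), no filter (0.115) and after median centring (0.305). In KO Ssr3 differed by 0.10 ± 0.09 (adjusted p = 0.351), and its values went from 12.81, 12.93 and 13.05 to 13.14, 13.21 and 13.10 in WT and from 13.18, 12.89 and 13.31 to 13.11, 13.29 and 13.28 in KO. Only the WT times were apart. After quantile normalization Ssr3 was called higher in KO too. Ssr2 shares 12.8% of its exon bases with other genes.

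The promoter element shown above did not go with 1 direction. Of the 9 genes with the full element, Hsp90b1, Calr, Dnajc3 and Creld2 were called higher at 12 h and Hspa5, Syvn1 and Derl3 lower, in each genotype, and Canx and Pdia6 were not called. Their median change was 0.08 in WT and 0.09 in KO, beside 0.14 and 0.13 for the 22 genes whose promoters lacked it, of which 11 were called higher and 5 lower in each genotype. Of all genes, 34.3% were called higher and 33.6% lower in each genotype. Pdia3, Pdia4 and Dnajb9, which had the largest changes of the group, were among those 22. Of the 2 genes with the second form, Dnajb11 was called lower and Herpud1 was not called.

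The comparison of KO-labelled with WT libraries asks whether loss of SMAD4, the partner through which TGF-β and BMP signals reach the nucleus, changed this machinery while the TGF-β receptor was inhibited. No difference was called for any of the 38 genes by limma at either time, between groups whose Smad4 level, as given above, did not check the label. At 3 h 0 of 38 were called, where 1.05% of all genes were (0.298% higher and 0.748% lower in KO), and at 12 h 0 of 38, where 0.667% were (0.499% higher and 0.169% lower). At an unadjusted p under 0.05 there was 1 gene at each time, Ssr3 at 3 h and Atf6 at 12 h, beside 1131 and 792 of all genes. The differences ran from -0.21 to 0.20 at 3 h and from -0.16 to 0.14 at 12 h, with medians of 0.03 and 0.02.

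A difference that was not called does not show that the genotypes were alike, and the intervals give what these libraries could still hold. The 95% intervals of the 37 genes other than Derl3 lay between -0.42 and 0.39 at 3 h, that is between 0.745-fold and 1.31-fold, and between -0.45 and 0.31 at 12 h, between 0.733-fold and 1.24-fold. For Derl3, the lowest gene, they reached down to -0.66 at 3 h and ran from -0.47 to 0.44 at 12 h. The KO and WT libraries did not overlap for 4 genes at 3 h (P4hb, Ssr2 and Spcs2 higher in KO, Sec61a1 lower) and for 4 at 12 h (Derl1 and Derl2 higher, Atf6 and Dnajc3 lower), beside 11.6% and 12.8% of all genes. At 12 h the lowest p was that of Atf6, at 12.04, 12.01 and 12.07 in WT and 11.83, 11.90 and 11.92 in KO, with a difference of -0.16 ± 0.07 and an adjusted p of 0.783. At 3 h the highest difference was that of Ssr3, 0.20 ± 0.09 (adjusted p = 0.538), with overlapping libraries. Next in order of p came Derl2 (0.14, adjusted p = 0.575) and Pdia3 (0.12 ± 0.06, adjusted p = 0.576) at 3 h, and Derl1 (0.14 ± 0.07, adjusted p = 0.819) and Pdia6 (0.10, adjusted p = 0.977) at 12 h, all higher in KO by the difference of means. Their values per library are those given above.

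**Figure D4:**
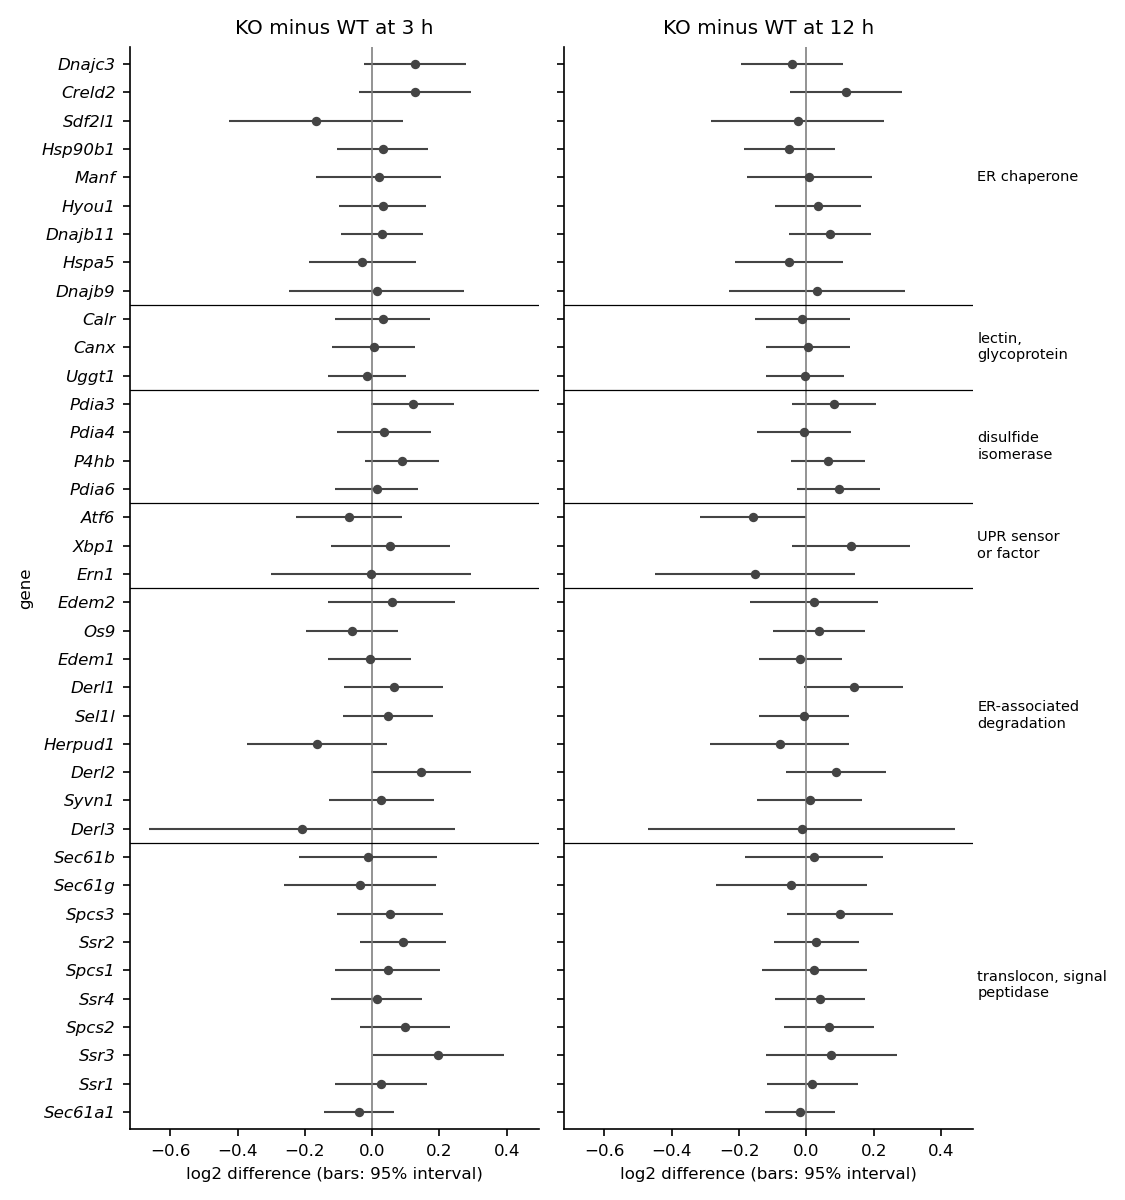
KO minus WT log2 difference for each of the 38 genes (rows, grouped by role) at 3 h (left) and 12 h (right). Points are differences of the means of 3 libraries each and bars are 95% intervals from limma. The points lie between -0.21 and 0.20 at 3 h and between -0.16 and 0.14 at 12 h, and no gene was called.

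Whether the change over time itself differed between genotypes was tested with the interaction of genotype and time. By limma 0 of 38 genes and 0 of all 12436 were called, and at an unadjusted p under 0.05 there were 0 of 38 and 497 of all genes. The difference closest to a call in any setting was that of Dnajc3, with an interaction of -0.17 ± 0.10 (adjusted p = 0.998 in the fit as reported and 0.857 at its lowest). Next in order of p were Os9 (0.10 ± 0.09) and Pdia6 (0.08 ± 0.08), both with an adjusted p of 0.998. The 95% intervals of the interaction lay between -0.57 (Ern1) and 0.50 (Sdf2l1) for the 37 genes other than Derl3, and that of Derl3 reached 0.84. The narrowest was that of Sec61a1, from -0.13 to 0.17. Differences in the change within the interval of each gene could go unseen.

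The rest of the pathway was read from 6 further lists with 130 tested genes, none of them in the group of 38. In WT, the list of other oxidoreductases and folding helpers had 11 of 23 genes higher at 12 h and 5 lower, and that of N-glycosylation 11 of 22 higher and 3 lower. Among other sensors and factors of the stress response 2 of 16 were higher and 9 lower, among targeting and translocation genes 7 of 24 and 10, among genes of transport from the ER to the Golgi 6 of 23 and 10, and among other degradation genes 7 of 22 and 7. In KO the counts, higher then lower, were 12 and 5, 10 and 4, 2 and 6, 8 and 9, 6 and 9, and 7 and 7 in the same order of lists. These stand beside 34.3% of all genes higher and 33.6% lower in each genotype. Between genotypes, 0 of the 130 were called at 3 h and 0 at 12 h.

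**Figure D5:**
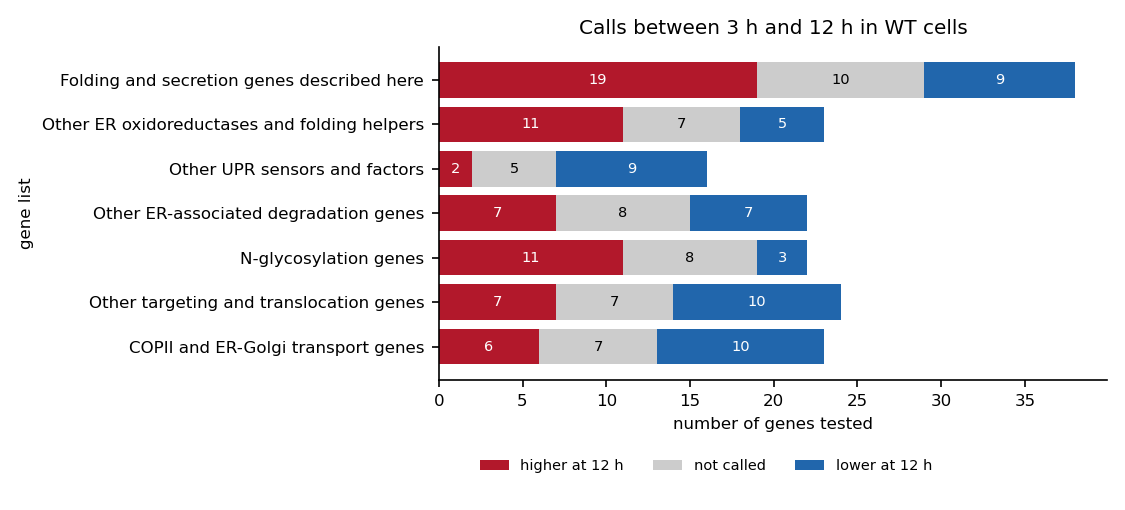
Number of genes called higher at 12 h (red), not called (grey) and called lower (blue) in WT, for the 38 folding and secretion genes and 6 further lists of the ER pathway. The bars read 19, 10 and 9 for the 38 genes, and 2, 5 and 9 for the other sensors and factors of the stress response.

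Named from each list are the 2 called genes that rose most and the 2 that fell most in WT, which again ran both ways. Among folding helpers, Ero1lb, an oxidase that recharges disulfide isomerases, fell by 1.96 ± 0.15 in WT (adjusted p = 1.16e-08) and fell by 1.94 in KO, while Fkbp2, a prolyl isomerase, rose by 0.87 ± 0.13 (adjusted p = 1.79e-05) and 0.89. Dnajb14, a membrane co-chaperone, rose by 0.80 ± 0.15 in WT (adjusted p = 0.000226) and 0.86 in KO, and Dnajc1, another co-chaperone of BiP, fell by 0.43 ± 0.05 (adjusted p = 4.19e-06) and fell by 0.45. Of the stress response, Ppp1r15a, which encodes the phosphatase subunit GADD34 that restores translation after PERK acts, fell by 1.84 ± 0.06 in WT (adjusted p = 1.97e-12) and fell by 1.60 in KO, and Wfs1, an ER membrane protein, fell by 0.82 ± 0.11 (adjusted p = 9.88e-06) and fell by 0.84. Bak1, a cell death factor, rose by 0.42 ± 0.07 in WT (adjusted p = 7.08e-05) and 0.37 in KO. Mbtps2, a protease that cuts ATF6, rose by 0.27 ± 0.10 in WT (adjusted p = 0.0276) and differed by 0.16 in KO (adjusted p = 0.169). Eif2ak3 (PERK), Atf4 and Ddit3 (CHOP) were looked up after the values had been seen. Eif2ak3 fell by 0.77 ± 0.09 in WT (adjusted p = 2.21e-06) and fell by 0.62 in KO (adjusted p = 1.96e-05), and Ddit3 fell by 0.62 ± 0.13 and fell by 0.60 (adjusted p = 0.000605 and 0.000776). Atf4, whose protein is controlled mainly at translation, was not called (0.01 ± 0.08 and 0.02 ± 0.08, adjusted p = 0.919 and 0.864).

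Degradation genes included Rnf5, a ubiquitin ligase, which rose by 1.15 ± 0.12 in WT (adjusted p = 3.00e-07) and 1.41 in KO, and Ube2g2, a ubiquitin-conjugating enzyme of the pathway, which fell by 0.78 ± 0.08 (adjusted p = 3.82e-07) and fell by 0.71. Ngly1, which strips sugars from exported proteins, rose by 1.07 ± 0.12 in WT (adjusted p = 7.32e-07) and 1.25 in KO, and Aup1, which recruits Ube2g2, fell by 0.71 ± 0.06 (adjusted p = 5.86e-08) and fell by 0.60. Of the N-glycosylation genes, Tusc3, a subunit of the oligosaccharyltransferase, rose by 0.88 ± 0.08 in WT (adjusted p = 8.02e-08) and 0.94 in KO, and Alg5, which makes a glucose donor for the sugar chain, fell by 0.34 ± 0.06 (adjusted p = 0.000144) and fell by 0.38. Prkcsh, the β subunit of glucosidase II, rose by 0.49 ± 0.07 in WT (adjusted p = 5.97e-06) and 0.53 in KO, and Alg3, a mannosyltransferase, fell by 0.25 ± 0.07 (adjusted p = 0.00724) and fell by 0.21.

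Among genes of targeting and translocation, Tram1, a membrane protein beside the channel, rose by 0.96 ± 0.07 in WT (adjusted p = 1.48e-08) and 0.84 in KO. Sec62, a partner of the channel for chains that enter after synthesis, fell by 0.60 ± 0.07 (adjusted p = 1.01e-06) and fell by 0.56. Emc10, of the ER membrane complex, rose by 0.58 ± 0.08 in WT (adjusted p = 1.45e-05) and 0.71 in KO, and Srprb, of the receptor for the signal recognition particle, fell by 0.59 ± 0.06 (adjusted p = 5.07e-07) and fell by 0.53. On the way to the Golgi, Lman1, a cargo receptor for glycoproteins, rose by 0.86 ± 0.07 in WT (adjusted p = 1.15e-08) and 0.84 in KO, and Sec16a, a scaffold of ER exit sites, fell by 0.81 ± 0.08 (adjusted p = 3.15e-07) and fell by 0.83. Sec23a and Sec24b, which encode inner coat proteins of the vesicles, went apart: Sec23a rose by 0.51 ± 0.08 in WT (adjusted p = 4.23e-05) and 0.48 in KO, and Sec24b fell by 0.70 ± 0.05 (adjusted p = 9.67e-09) and fell by 0.78.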

How the data were processed

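Messenger RNA of 12 libraries was analysed, 3 in each of 4 groups by genotype and time, as the sample titles give them. The values are log2 values that the authors normalised and deposited as 1 table. The submitters' processing notes name Trim Galore, STAR, featureCounts, DESeq2 and the build mm10, without versions, options or annotation. The table has the form of a regularised log: 5663 rows were at 0 in all libraries, 0 in only some, 3989 averaged below 0, and the range was -2.37 to 20.1. Such values understate differences of low genes and hold no depth, so no counting interval was computed. The TruSeq V2 kit named in the labels does not mark strand. All 12 columns matched a sample title, and 0 were left unmapped.

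Means of the 4 groups were fitted over all 12 libraries with limma 3.58.1 in R 4.3.3 (lmFit, then eBayes with trend, two-sided). Genes with a mean of at least 3 were kept (12436), Benjamini-Hochberg adjustment ran over all of them, and an adjusted p under 0.05 made a call. Folds are 2 to the power of a log2 difference. The code was tested on simulated data with 200 changed genes. Alternatives were 2 scalings, 2 filters, no trend, array weights, fits on the compared groups, a replicate block, each library left out, and the 4 libraries numbered 2 left out. Residuals were taken as the deposited values minus the mean of each group. Those of equally numbered libraries correlated in every pair between genotypes (0.194 to 0.402 at 3 h, 0.174 to 0.5 at 12 h) and between WT times (0.207 to 0.432), and less between KO times (0.0637 to 0.368). The highest value was each time that of the libraries numbered 2. Between KO times, 3 h libraries 1 and 3 correlated less with their own number (0.0637 and 0.0892) than with a differently numbered 12 h library (0.186 and 0.11). Near-identical copies were sought with minimap2 2.31-r1302 among GENCODE M21 transcripts (at least 90% identity over 200 bases), which also gave positions (GRCm38). Every member is accounted for. Values per library are given for Hspa5, Xbp1, Ern1 and Atf6, the 8 largest rises and 8 largest falls over time called in both genotypes, the 3 lowest p-values between genotypes and of the interaction, and Hsp90b1; each further list gives 2 rises and 2 falls. Members and lists were chosen with earlier results of these data known.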

Additional observations from a re-analysis of the deposited data

How the results depend on the processing

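The total of the 38 genes called, in either direction, kept within 1.5 times of that reported under every alternative run; the counts by direction did not, since 19 called higher in KO became 10 after median centring. In the change from 3 h to 12 h, 25 to 28 of the 38 genes were called in WT and 22 to 28 in KO when 1 library was left out, and 0 in each such fit between genotypes and for the interaction. With the replicate number as a block, 28 were called in WT and 27 in KO, and the block changed no call between genotypes (0 at 3 h, 0 at 12 h, 0 for the interaction). Without the 4 libraries numbered 2 it was 21 in each genotype. The other counts for WT and KO were 26 and 25 without the trend, 25 and 26 without a filter, 27 and 27 with a mean of at least 6, 28 and 26 with array weights, and 28 and 25 when only the compared groups were fitted. A fit on the compared groups alone cannot give the interaction. Of the 28 calls in each genotype, 19 in WT and 15 in KO held under every alternative in which the gene was tested. The 19 include Derl3, which the filter at a mean of at least 6 left untested.

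The scaling moved the median change of the 38 genes, from 0.14 to 0.26 in WT and from 0.13 to 0.25 in KO after quantile normalization, and to 0.03 and -0.00 after median centring. Dnajb11 reversed in KO after quantile normalization (0.0035, adjusted p = 0.96). Hyou1, not called as reported, changed sign there in both genotypes and was called higher. The cause was not tested for either gene. The lowest adjusted p that any of the genes reached between genotypes under an alternative was 0.0972 for Ssr3 at 3 h and 0.362 for Derl1 at 12 h. Over all genes, the number called between genotypes was less steady, from 9 to 261 at 3 h (130 as reported) and from 22 to 167 at 12 h (83 as reported).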

Other observations

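Outside the genes described, 28 further genes had the full ER stress response element in the promoter table, and 11 of them were tested. From 3 h to 12 h, 0 of these 11 were called higher and 5 lower in each genotype, with a median change of -0.22 in WT and -0.24 in KO, where 34.3% of all genes were higher and 33.6% lower. The 5 were Ero1lb (-1.96 in WT and -1.94 in KO), Acacb (-0.82 and -1.27), which encodes an acetyl-CoA carboxylase, Adcy3 (-0.81 and -0.85), an adenylate cyclase, Ptgdr2 (-0.77 and -0.63), a prostaglandin D2 receptor, and Pan2 (-0.44 and -0.44), a subunit of a poly(A) nuclease. Between genotypes 0 of the 11 were called at 3 h or 12 h. These genes were looked up after the values of the 38 had been seen.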
